A study of Mus musculus with 24 samples.

Results

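The mouse keratin genes lie in 2 clusters, and the 19 bins of 100 kb that overlap them are described here out of 26350 bins on chromosomes 1 to 19 and X. Members were all bins of the deposited count table that overlap a gene on chromosome 11 or 15 whose symbol begins with Krt. The rule found 11 adjoining bins on chromosome 11 (chr11:99200001-100300000, mm10) and 8 on chromosome 15 (chr15:101300001-102100000, mm10), with 10 bins taken as flanks on each side of each cluster. They hold 77 genes, of which 27 keratin genes and 23 keratin-associated protein (Krtap) genes are on chromosome 11 and 27 keratin genes, 1 of them a pseudogene, on chromosome 15. All 19 keratin bins and all 40 flanking bins passed the filter on low counts.

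Libraries of H2AX, gH2AX and input chromatin were made from primary mouse embryonic fibroblasts (MEFs) of strain C57BL6, female or male, wild type (WT) or SIRT7-KO. All 12 groups, controls included, had received 5 Gy of X-rays and 30 min of recovery, and each group held 2 libraries. No unirradiated library was labelled as such, so a level present before irradiation cannot be told apart from one that followed it. Whether both libraries of a group had their own culture is not stated, so p-values measure the spread between these samples, which may be technical. A difference between KO and WT likewise cannot be told apart from a difference between the cultures or embryos used.

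Keratins are the intermediate filament proteins of epithelia, built as pairs of 1 type I and 1 type II chain. The type I genes make up the chromosome 11 cluster and the type II genes the chromosome 15 cluster, with the exception of Krt18, a type I gene that sits beside its partner Krt8 at the end of the chromosome 15 cluster. Krtap genes code for small matrix proteins of hair and lie in the middle of the chromosome 11 cluster. Fibroblasts are mesenchymal cells that build their filaments mainly from vimentin. H2AX is a variant of histone H2A, gH2AX is its form phosphorylated around DNA double-strand breaks, and SIRT7 is a NAD-dependent deacetylase. The files hold no expression data, so neither the silence of the keratin genes nor the identity of the cells was measured here.

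Library totals ranged from 66886947 to 269343993 reads, and the keratin bins held 2135 to 11936 reads per library. Reads of chromosome X over autosomal reads in input were near -3.99 (log2) in female and near -4.85 in male libraries, as labelled. Input reads of the keratin bins averaged 91.3% to 104% of the median autosomal bin (37.1 CPM). CPM are read counts scaled to the autosomal reads of a library by edgeR with TMM factors. The lowest input reads were those of the bin of Krt5 and Krt71 to Krt73. Each value below belongs to a whole bin that holds 1 to 9 keratin genes and is not specific to 1 gene.

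The promoters of the 2 clusters differed in sequence, which is shown for 6 genes whose bins recur below. RefSeq start sites (GRCm38.p6) gave 58 promoter windows of 300 bases for 57 of the 77 genes. Of these, 41 genes are on chromosome 11 and 16 on chromosome 15, so fewer of the chromosome 15 genes are covered. Each line gives the 100 bases before the start site on the gene's strand, 5′ to 3′. Capitals mark the motif TATAAA and every CG dinucleotide. Krtap4-9 and Krtap4-13 are hair matrix genes of the chromosome 11 interior, Krt10 and Krt5 are a type I keratin of differentiating and a type II keratin of basal epidermal cells, and Krt7 and Krt18 are keratins of simple epithelia.
Krtap4-9: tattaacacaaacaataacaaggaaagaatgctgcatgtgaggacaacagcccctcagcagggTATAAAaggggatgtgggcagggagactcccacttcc
Krtap4-13: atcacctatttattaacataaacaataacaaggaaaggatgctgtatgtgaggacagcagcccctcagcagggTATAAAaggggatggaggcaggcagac
Krt10: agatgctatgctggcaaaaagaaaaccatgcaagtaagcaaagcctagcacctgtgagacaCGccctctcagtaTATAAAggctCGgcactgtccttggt
Krt5: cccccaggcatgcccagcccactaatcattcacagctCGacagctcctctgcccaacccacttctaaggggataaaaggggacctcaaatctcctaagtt
Krt7: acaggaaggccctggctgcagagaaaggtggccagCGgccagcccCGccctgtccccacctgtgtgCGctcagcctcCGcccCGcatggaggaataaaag
Krt18: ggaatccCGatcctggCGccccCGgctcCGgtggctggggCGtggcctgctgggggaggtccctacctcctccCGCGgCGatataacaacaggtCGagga

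The stretches lie at chr11:99785100-99785199 (Krtap4-9, plus strand), chr11:99809897-99809996 (Krtap4-13, minus strand), chr11:99389365-99389464 (Krt10, minus strand), chr15:101712906-101713005 (Krt5, minus strand), chr15:101412303-101412402 (Krt7, plus strand) and chr15:102028116-102028215 (Krt18, plus strand). The motif TATAAA begins at position -37 in Krtap4-9, at -27 in Krtap4-13 and at -26 in Krt10, counted back from the start site. The 2 Krtap4 promoters share an identical run of 30 bases and hold 0 CG dinucleotides over these 100 bases. Krt5 holds 1, Krt10 holds 2, Krt7 holds 5 and Krt18 holds 9. Shared stretches such as that of the 2 Krtap4 promoters could affect the counts of the Krtap bins, which was not tested. The sources used here do not state how reads with several alignments were handled.

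On the gene's strand, TATAAA lay within 50 bases before the start site in 18 of 21 Krtap promoters (85.7%), in 12 of 21 promoters of other keratin genes on chromosome 11 (57.1%) and in 3 of 16 on chromosome 15 (18.8%). The same search found it in 3.17% of 21263 protein-coding promoters of the genome and in 3.51% of 114 promoters of the flanking bins. Anywhere in the 300-base window and on either strand, TATAAA was found in 67.2% of keratin promoters and 12.6% of all promoters. Keratin promoters held a median of 3.5 CG dinucleotides per 300-base window, against 13.0 over all promoters and 18.0 in the flanks, and their median GC content was 45.8% against 56.3% and 60.5%. By cluster, the medians were 3.0 CG dinucleotides and 42.7% GC on chromosome 11, and 6.0 and 53.3% on chromosome 15. Krt7, with 21 CG dinucleotides in its window, and Krt18, with 17, were nearer to the flanking genes than to the other keratins. These 2 printed examples are thus not typical of the chromosome 15 promoters.

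Both clusters lay between gene-rich flanks that carried more gH2AX and more H2AX than input. Against that level, the chromosome 11 cluster formed a trough of both marks, deepest at the Krtap genes, and the chromosome 15 cluster kept H2AX but held less gH2AX in its interior. Ratios are log2 values from an edgeR quasi-likelihood fit of all 24 libraries, averaged over the 4 combinations of sex and genotype, given with their standard error (SE) and adjusted by Benjamini-Hochberg over 25703 bins. The threshold for a call was an adjusted p of 0.05.

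For gH2AX relative to input, 12 of the 19 keratin bins were called higher, beside 41.5% of all bins tested, and 4 were called lower, beside 45.2%. The median over keratin bins was 0.062, against -0.012 over all bins and 0.30 over the 40 flanking bins. Of the flanking bins, 38 were called higher and 0 lower by edgeR. For H2AX relative to input, 16 of 19 keratin bins were called higher, beside 44.9% of all bins, and 2 lower, beside 44.5%. The median was 0.16 in keratin bins and 0.34 in the flanks, where all 40 bins were called higher. Since most bins of the genome were called in one direction or the other, a call alone says little, and the sizes of the ratios are given below.

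**Figure D1:**
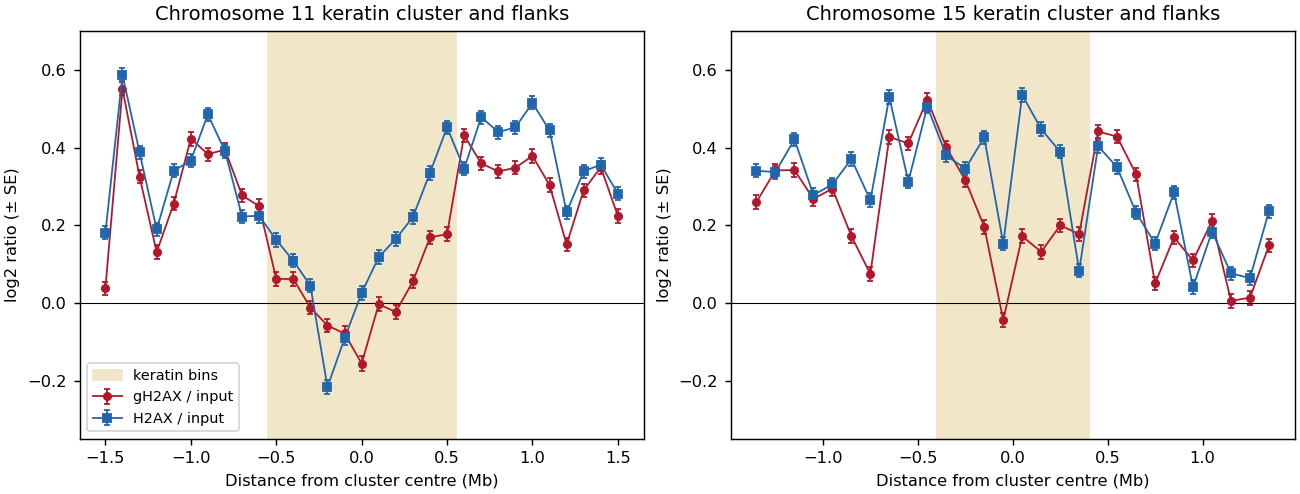
Log2 ratio of gH2AX to input (circles) and of H2AX to input (squares) in each 100 kb bin of the 2 clusters and their 10 flanking bins per side, against distance from the cluster centre in Mb. Bars are SE, and shading marks the keratin bins. On chromosome 11 both marks dip within the shading, gH2AX to -0.16, and on chromosome 15 the H2AX line stays high at 0.54 in the Krt5 bin while the gH2AX line drops to 0.17.

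On chromosome 11, gH2AX was lower toward the Krtap genes from both sides. The bin of Krt222 and Krt24 at the left edge, which also holds Smarce1, had a log2 ratio of gH2AX to input of 0.062 ± 0.018, and the bin of Krt25 to Krt28 and Krt10 one of 0.062 ± 0.017. The bin of Krt12, Krt20 and Krt23, keratins of cornea and gut among others, was at -0.012 ± 0.018 and was not called (adjusted p = 0.524, edgeR). The 5 bins with Krtap genes were all below 0, from -0.16 to -0.0033, and 3 of them were called lower.

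The lowest gH2AX to input of either cluster was in the bin of Krtap4-8 and Krtap4-9 (chr11:99700001-99800000). Its 8 gH2AX libraries held 31.6 to 36.7 CPM with a median of 33.9, and its 8 input libraries held 36.1 to 39.0 with a median of 38.6. Only 1 gH2AX library, replicate 1 of the male WT group at 36.7, reached the lowest input library. The ratio was -0.16 ± 0.018 (adjusted p = 4.78e-15, edgeR), and 20.5% of all bins tested were lower. H2AX in this bin did not differ from input beyond the error, with 0.026 ± 0.018 (adjusted p = 0.165).

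H2AX had its low point 2 bins to the left, in the bin that holds Krt39, Krt40 and 7 Krtap genes (chr11:99500001-99600000). Its H2AX libraries held 32.1 to 34.0 CPM, below every input library (37.6 to 39.8). The ratio of H2AX to input was -0.22 ± 0.018 (adjusted p = 2.42e-26), and among bins with 5 or more protein-coding genes only 3.99% were lower. gH2AX was reduced less there, with -0.058 ± 0.018, so that gH2AX relative to H2AX was 0.16 ± 0.018, the highest of the 19 keratin bins. The next bin, with Krtap2-4 and 4 Krtap4 genes, was low in both marks at -0.079 ± 0.018 for gH2AX and -0.092 ± 0.018 for H2AX.

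H2AX was above input again within the Krtap stretch. The H2AX libraries held 39.18 to 41.57 CPM in the bin of Krtap4-13, against 35.55 to 38.33 in input. In the bin of Krtap31-1 they held 40.59 to 44.98, against 36.6 to 38.85. Beyond the Krtap genes gH2AX was higher again through the hair keratins, and H2AX rose further. In the bin of Krt33a, Krt33b, Krt34, Krt31, Krt32 and Krt35, type I keratins of hair and nail, the ratio was 0.055 ± 0.018 for gH2AX and 0.22 ± 0.017 for H2AX. The bin of Krt36, Krt13, Krt15, Krt19 and Krt9 reached 0.17 ± 0.018 and 0.33 ± 0.017. The right edge bin holds Krt14, the type I partner of Krt5 in basal epidermis, with Krt16, Krt17 and Krt42. It had 0.18 ± 0.018 for gH2AX but 0.45 ± 0.017 for H2AX, so that H2AX had regained the level of the flanks while gH2AX had not.

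The flanks of the chromosome 11 cluster gave the local scale. Their gH2AX to input ratios ran from 0.037 ± 0.017 at Cdk12 to 0.55 ± 0.017 in the bin of Neurod2, Stard3 and Pgap3, with a median of 0.33, and their H2AX to input ratios had a median of 0.36. The median over the 11 keratin bins was -0.0033 for gH2AX and 0.12 for H2AX. The 4 bins whose only Krt-named genes are Krtap genes had a median of -0.051 for gH2AX and 0.072 for H2AX. The 6 bins with keratin genes but no Krtap gene had medians of 0.062 and 0.19.

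On chromosome 15, gH2AX at the left edge was as high as in the flanks and in the interior it was lower. The bin of Krt80 at the left edge (chr15:101300001-101400000) had the highest gH2AX of all keratin bins, with a ratio to input of 0.40 ± 0.017, and an H2AX ratio of 0.38 ± 0.017. In the next bin, with Krt7 and the hair keratin genes Krt81, Krt83 and Krt86 among its 6 keratin genes, the 8 gH2AX libraries held 43.6 to 46.5 CPM, all above the input libraries (35.4 to 38.3). Its ratios were 0.32 ± 0.017 for gH2AX and 0.35 ± 0.017 for H2AX.

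The bin of Krt6b and Krt6a, type II keratins induced in wounded epidermis, was the lowest in gH2AX on this chromosome. Its gH2AX libraries held 34.4 to 36.8 CPM and overlapped its input libraries (35.8 to 37.9), and the ratio was -0.044 ± 0.018 (adjusted p = 0.0172). Without replicate 2 of the male WT input it was -0.038 (adjusted p = 0.0564). H2AX in that bin was above input by 0.15 ± 0.017.

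The highest H2AX of all keratin bins was in the bin of Krt5, Krt71, Krt74, Krt72 and Krt73 (chr15:101700001-101800000). Its H2AX libraries held 46.0 to 50.8 CPM, its gH2AX libraries 36.5 to 39.3 and its input libraries 31.6 to 35.6, and these 3 ranges did not overlap. The ratio to input was 0.54 ± 0.017 for H2AX, above 96.9% of all bins, and 0.17 ± 0.018 for gH2AX, above 77.8%. The neighbouring bin of Krt73, Krt2, Krt1, Krt77 and Krt76, which holds the epidermal differentiation keratins Krt1 and Krt2, had 0.45 ± 0.017 for H2AX and 0.13 ± 0.018 for gH2AX. In the 4 bins of Krt84, Krt5, Krt1 and Krt4, input was also low, at 91.3% to 95.7% of the median autosomal bin. A low input raises both ratios, and its part in them was not tested, while gH2AX relative to H2AX does not use input.

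At the right edge, the bin of Krt8 and Krt18, the keratin pair of simple epithelia, also holds Eif4b and Tns2. It was the keratin bin of chromosome 15 with the lowest H2AX ratio, 0.083 ± 0.017, at a gH2AX ratio of 0.18 ± 0.017. The flanks of this cluster ran from 0.0053 ± 0.018 in a bin without genes to 0.52 ± 0.017 in the bin of Acvr1b, Nr4a1 and Atg101 for gH2AX. Medians in these flanks were 0.26 for gH2AX and 0.30 for H2AX, against 0.19 and 0.38 in the 8 keratin bins.

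gH2AX relative to H2AX, which sets the phosphorylated form against the variant itself, was low over most of both clusters. It was called lower in 14 of 19 keratin bins, beside 36.6% of all bins tested, and higher in 2, beside 38.5%. The median was -0.17 in keratin bins, 0.0040 over all bins and -0.058 in the flanks, of which 24 of 40 were called lower. The lowest value was that of the Krt5 bin, -0.36 ± 0.017, and 0.922% of all bins tested were lower. The Krt1 bin followed with -0.32 ± 0.017 and the Krt14 bin on chromosome 11 with -0.28 ± 0.017, with 1.70% and 2.77% of bins below them.

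The bins of Krt84 (-0.23 ± 0.017), Krt6b (-0.20 ± 0.018) and Krt4 (-0.19 ± 0.017) completed the low interior of chromosome 15. By contrast, 3 bins at its edges were near or above 0, with 0.021 ± 0.017 for Krt80, -0.029 ± 0.017 for Krt7 and 0.094 ± 0.017 for Krt8 and Krt18. Only the last of these was called (adjusted p = 3.08e-07). The bin of Krt25 to Krt28 and Krt10 was a marginal call at -0.047 ± 0.017 (adjusted p = 0.0108). It missed the threshold, with adjusted p between 0.0577 and 0.0801, when replicate 1 of male WT gH2AX, replicate 2 of female WT H2AX or replicate 1 of male KO H2AX was left out.

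**Figure D2:**
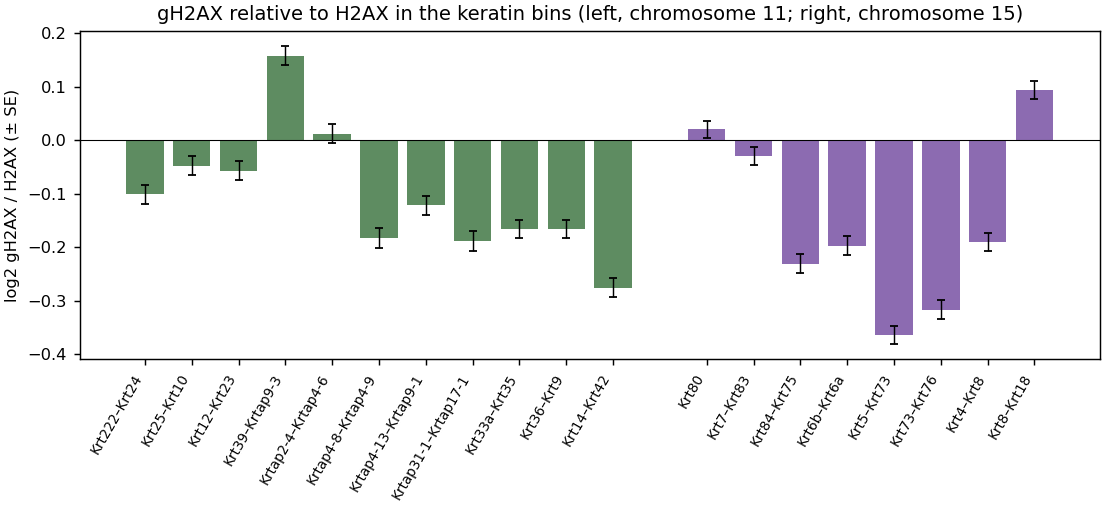
Log2 ratio of gH2AX to H2AX in each of the 19 keratin bins, in chromosomal order, with SE as bars. Bins are named by their first and last keratin gene. The bars reach -0.36 at the Krt5 bin and -0.28 at the Krt14 bin, and the Krt39 bin at 0.16 and the Krt8 and Krt18 bin at 0.094 point upward.

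The contrast with the flanks was also taken library by library, as the mean log2 level of the keratin bins minus that of the 20 flanking bins. On chromosome 11 it was -0.34 to -0.20 in the 8 gH2AX libraries, -0.24 to -0.18 in the 8 H2AX libraries and 0.0057 to 0.058 in the 8 input libraries. Every gH2AX and H2AX library was thus low in the cluster and no input library was. Relative to input, the mean over the 4 combinations of sex and genotype was -0.29 ± 0.044 (SD, n = 4) for gH2AX and -0.24 ± 0.022 for H2AX. gH2AX over H2AX came to -0.051 ± 0.061, a mean smaller than its SD. It was -0.043 in female KO, -0.080 in female WT, -0.11 in male KO and 0.030 in male WT. These groups differ in sex and genotype, so the SD is not a spread of replicates.

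On chromosome 15 the marks parted. The level relative to the flanks was -0.093 to -0.053 in the gH2AX libraries and -0.00022 to 0.068 in the H2AX libraries, with -0.038 to -0.0028 in input. gH2AX over H2AX was -0.12 ± 0.022 (SD, n = 4), with -0.13 in female KO, -0.14 in female WT, -0.12 in male KO and -0.089 in male WT. gH2AX over input was -0.057 ± 0.016 and moved to -0.11 with 5 flanking bins per side and to -0.017 with 20, so its size depended on the flanks chosen. H2AX over input, 0.062 ± 0.027, moved to 0.0060 with 5 flanking bins per side. These scores over chosen bins were given no test.

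**Figure D3:**
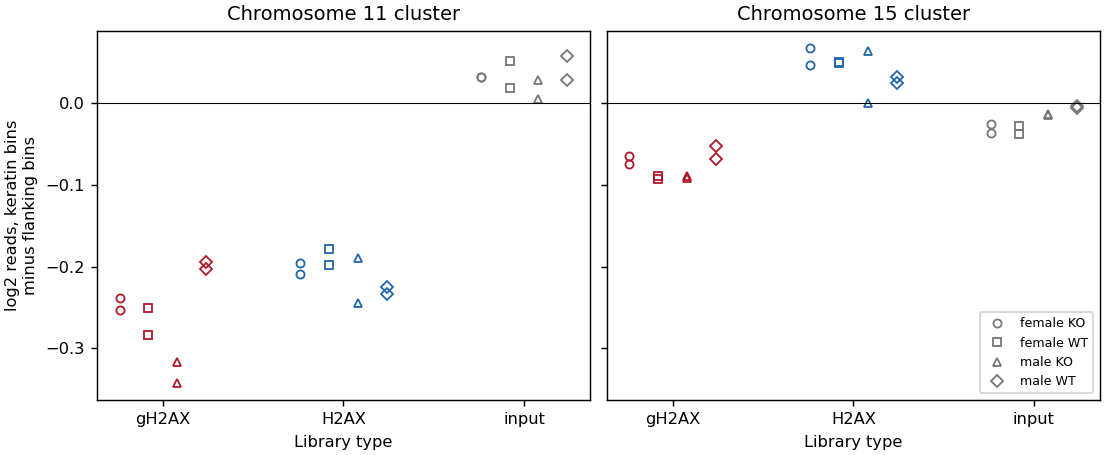
Mean log2 reads of the keratin bins minus that of the 10 flanking bins per side, for each of the 24 libraries, by library type (x axis) and by sex and genotype (symbols). On chromosome 11 all gH2AX and H2AX points lie below 0, with male KO lowest in gH2AX at -0.34 and -0.32, and on chromosome 15 all gH2AX points lie below 0 and all input points between -0.038 and -0.0028.

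The keratin bins were also set against bins of like gene number, because both marks were higher in bins with more genes. Outside the clusters, the median gH2AX to input ratio was -0.089 in bins without a protein-coding gene, 0.068 with 1, 0.15 with 2, 0.23 with 3 or 4 and 0.35 from 5 upward. The 9 keratin bins with 5 or more genes had a median of -0.0033, against 0.35 in 676 other such bins, and the corresponding H2AX medians were 0.12 and 0.35. Of these 9 bins, 4 were called higher in gH2AX and 3 lower, against 79.9% and 17.3% of the other bins. In the 9 keratin bins with 3 to 4 genes, most of them on chromosome 15, the gH2AX median was 0.17 against 0.23 elsewhere, and the H2AX median was 0.39 against 0.24. Low gH2AX in bins rich in genes was therefore not particular to keratins, since 117 of the 676 other bins were called lower than input.

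Other genes of epithelial cells were described by list. Apart from the keratin genes among the epithelial markers, and Jup and Hoxc13 in the flanks, they lie elsewhere in the genome. The cornified envelope genes on chromosome 3 code for the proteins cross-linked at the surface of the epidermis. Of their 14 bins, 13 were called lower than input in gH2AX, beside 45.2% of all bins, and 10 in H2AX, beside 44.5%, with medians of -0.13 and -0.091. The lowest gH2AX was at -0.20, in the bin of Lce6a and Lce1a1 to Lce1d. The bin of Flg and Flg2, the filaggrin genes, had H2AX of 0.35 and gH2AX of 0.021 relative to input, and its gH2AX relative to H2AX was -0.33, near the value of the Krt1 bin.

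Krtap genes also lie on chromosomes 1, 7, 10 and 16. Of these 14 bins, 8 were called lower and 6 higher in gH2AX relative to input, beside 45.2% and 41.5% of all bins, so that these counts lay near the background. The median was -0.11. The 8 called lower were those of chromosome 16. H2AX was below input in 7 of these 8, as at Krtap20-2 with -0.31 for gH2AX and -0.27 for H2AX, and above it at Krtap7-1 and Krtap11-1 with 0.060. The bin of Krtap10-4 and Krtap10-10 on chromosome 10 had H2AX of 0.63 and gH2AX of 0.25, so that gH2AX relative to H2AX was -0.38. Over the 14 bins this last ratio was called lower in 10, beside 36.6% of all bins, and higher in 1, beside 38.5%.

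Genes for desmosomes and hemidesmosomes, which anchor keratin filaments to the cell membrane, lay in 18 bins with a median gH2AX to input of 0.12. The ratio was called higher in 11 of them, highest at Evpl (0.49), and lower in 6, beside 41.5% and 45.2% of all bins, which also apply to the next 2 lists. Regulators of epidermal genes lay in 17 bins, of which 14 were called higher and 1, that of Trp63, lower, with a median of 0.23. The other intermediate filament genes lay in 15 bins with a median of 0.29, of which 12 were called higher and 0 lower by edgeR. Vim, the vimentin gene, was an exception in this last list with -0.032 for gH2AX and -0.30 for H2AX. Bins of 8 fibroblast marker genes had a median of 0.21 for gH2AX and 0.082 for H2AX, and 7 of 8 were called higher in gH2AX relative to H2AX, beside 38.5% of all bins. Bins of epithelial markers, 3 of 7 of them keratin bins, had medians of 0.18 and 0.14. These markers are genomic intervals and do not show which cells were present.

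Loss of SIRT7 was compared with WT within each sex, in a fit of the 8 libraries of each antibody. In females, gH2AX was called in 0 of 19 keratin bins by edgeR, beside 1.01% of 25702 bins tested. At an unadjusted p under 0.05 the count was 2. DESeq2 also called 0, but its filter gave an adjusted p to only 3 of the 19 bins. Changes ran from -0.13 to 0.050 with a median of -0.0086, and those of the 40 flanking bins had a median of -0.048 with 0 called by edgeR. On simulated counts, the test called 54.5% of bins changed by 1.1-fold and 99.5% of those changed by 1.2-fold in this comparison.

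The largest female change was in the bin of Krt36, Krt13, Krt15, Krt19 and Krt9. Its gH2AX libraries held 40.6 and 37.5 CPM in female KO and 43.4 and 41.9 in female WT. Both KO values were below both WT values. The log2 change was -0.13 ± 0.037 and missed the threshold (adjusted p = 0.0597, edgeR). Input moved the other way in this bin, with 37.1 and 36.9 in female KO against 35.2 and 35.3 in female WT. With the input change subtracted, this bin was the 1 keratin bin called lower in females, at -0.20 (adjusted p = 0.0346, edgeR). It was also called without replicate 1 of female KO, at -0.18 (adjusted p = 0.0155), which leaves 1 library in that group, assumed to vary like the others.

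In males, gH2AX was higher in KO across most of the flanks and changed little inside the clusters. It was called higher in 2 of 19 keratin bins, beside 22.4% of all bins, and lower in 1, beside 22.2%. Of the 40 flanking bins, 25 were called higher and 0 lower by edgeR. The median change was 0.029 in keratin bins and 0.12 in the flanks, and it was -0.032 in the chromosome 11 cluster and 0.056 in the chromosome 15 cluster. Of 676 other bins with 5 or more protein-coding genes, 63.0% were called higher, against 0 of the 9 such keratin bins by edgeR.

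The Krt80 bin rose most. Its gH2AX libraries held 53.0 and 51.8 CPM in male KO and 46.8 and 43.7 in male WT. Both male WT values were also below those of all 4 female libraries, which lay between 50.3 and 51.5. The log2 change was 0.21 ± 0.035 (adjusted p = 2.76e-07, edgeR), and neither H2AX nor input of this bin was called between male KO and WT. Leaving out any 1 of the 8 gH2AX libraries kept this call.

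The bin of Krt8 and Krt18 held 45.5 and 44.8 CPM of gH2AX in male KO against 41.2 and 42.2 in male WT, and these values did not overlap. The change was 0.12 ± 0.035 (adjusted p = 0.00415, edgeR). Without replicate 1 of male WT it was 0.098 (adjusted p = 0.0742), and with the input change subtracted it was 0.060 (adjusted p = 0.377). Input of this bin stood at 41.0 and 38.2 in male KO against 38.2 and 37.6 in male WT. The 2 bins that rose in male KO are thus the outermost bins of the chromosome 15 cluster, next to flanks that rose as well.

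The bin of Krtap4-8 and Krtap4-9 fell in male KO. Its gH2AX libraries held 31.6 and 33.7 CPM in KO and 36.7 and 34.1 in WT, which did not overlap but lay close. The change was -0.11 ± 0.039 (adjusted p = 0.0107, edgeR). It was -0.078 (adjusted p = 0.177) without replicate 1 of male KO and -0.058 (adjusted p = 0.371) without replicate 1 of male WT. DESeq2 gave an adjusted p of 0.0525, so this call rested on single libraries and on the test used.

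**Figure D4:**
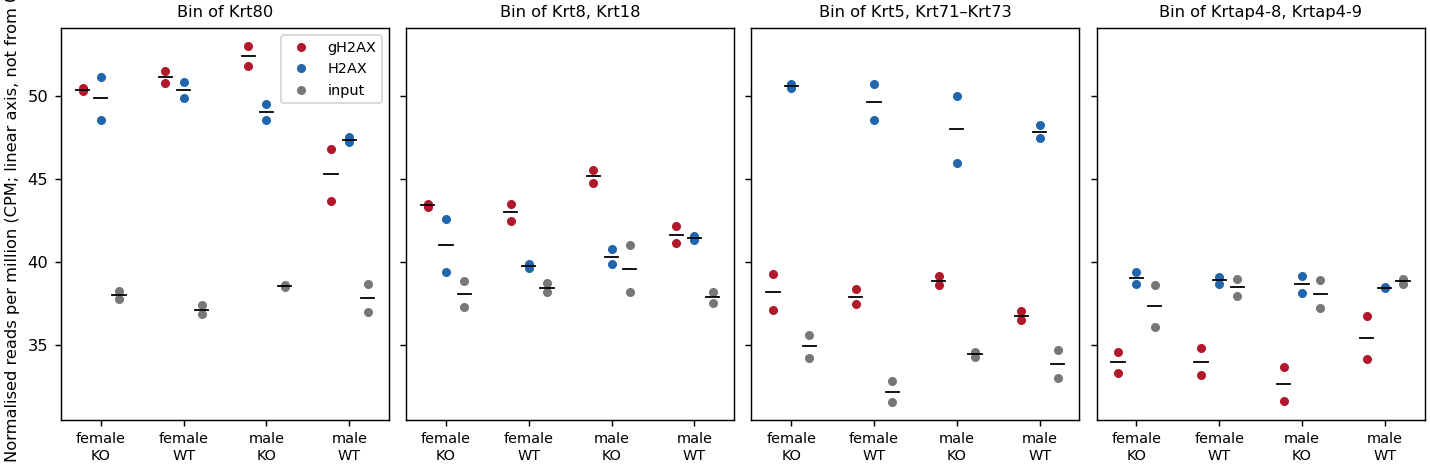
Normalised reads (CPM) of gH2AX, H2AX and input in 4 keratin bins, for each library (points) with the mean of each group of 2 (bars). The y axis is linear and does not start at 0. In the Krt80 bin the male WT gH2AX points at 46.8 and 43.7 lie below those of the other 3 groups, and in the Krt5 bin the H2AX points lie above 45 and the gH2AX points below 40.

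Across the 19 keratin bins the male KO change in gH2AX was larger where gH2AX relative to input was higher (Pearson r = 0.84, Spearman rho = 0.77, across bins). In the 40 flanking bins the values were 0.63 and 0.58. These are descriptions across neighbouring bins, and both measures use the same gH2AX libraries. When each library's trend on the ratio of gH2AX to input was removed across all bins, 0 keratin bins were called in males by edgeR, with 2 at an unadjusted p under 0.05, and 430 bins were called in the genome. The Krt80 bin then changed by 0.067 (adjusted p = 0.302), the Krt8 and Krt18 bin by 0.039 (adjusted p = 0.637) and the Krtap4-8 bin by -0.027 (adjusted p = 0.801). The median male change after this step was -0.027 in the chromosome 11 cluster and -0.0044 in its flanks, and -0.013 and 0.012 on chromosome 15.

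**Figure D5:**
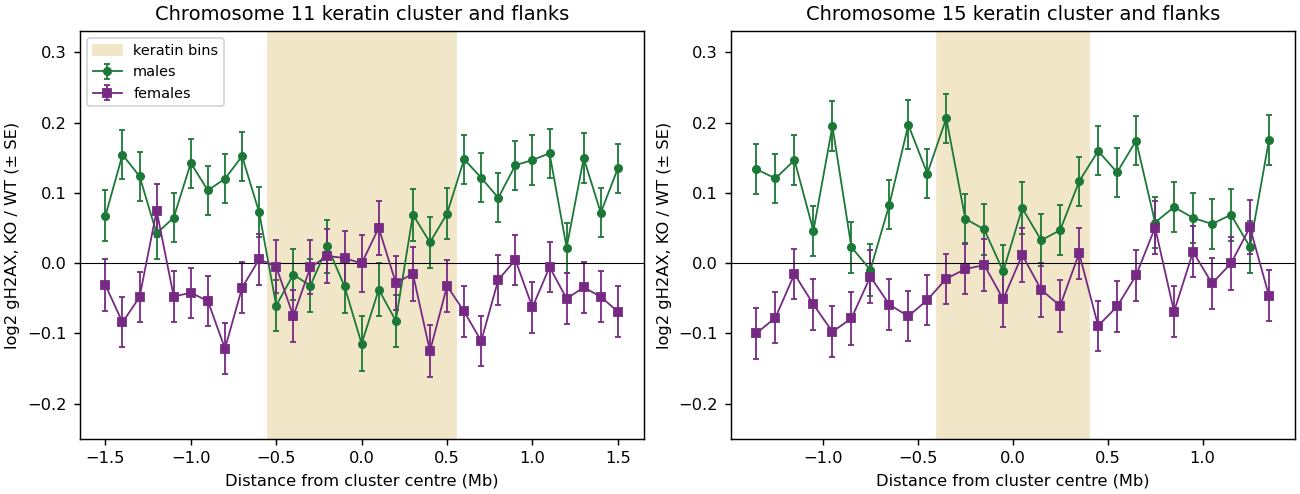
Log2 change of gH2AX in KO against WT in males (circles) and females (squares) for each 100 kb bin of the 2 clusters and their 10 flanking bins per side, against distance from the cluster centre in Mb. Bars are SE, and shading marks the keratin bins. The male line lies near 0.12 in the flanks, drops to -0.11 at the Krtap4-8 bin of chromosome 11 and stands at 0.21 at the Krt80 bin of chromosome 15.

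The difference between the female and the male KO effect was tested directly. Of 19 keratin bins, 2 were called lower in females than in males, beside 20.4% of all bins, and 0 were called higher by edgeR, beside 20.1%. At an unadjusted p under 0.05, 6 bins differed, and DESeq2 called 2 lower and 0 higher. In the flanks 27 of 40 bins were called lower and 0 higher by edgeR. The 2 keratin bins were that of Krt80, with a difference of -0.23 ± 0.050 (adjusted p = 9.39e-05), and that of Krt36 to Krt9, with -0.15 ± 0.052 (adjusted p = 0.0104). The Krt80 bin was called without any 1 of the 8 gH2AX libraries, from -0.28 to -0.18. The Krt36 bin missed the threshold, at -0.13 to -0.098 with adjusted p from 0.0648 to 0.177 (edgeR), without replicate 2 of female KO, replicate 1 of female WT, replicate 2 of male KO or replicate 2 of male WT. After removal of the trend on gH2AX relative to input, 0 keratin bins differed at an unadjusted p under 0.05 by edgeR.

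H2AX itself did not change detectably with SIRT7 in the keratin bins. By edgeR, 0 of 19 bins were called in females, beside 0.152% of 25703 bins, 0 in males, beside 0.191%, and 0 for the difference between the sexes, beside 0.272%. The counts at an unadjusted p under 0.05 were 0, 0 and 0, and DESeq2 called 0 in each. Changes ran from -0.038 to 0.042 in females and from -0.043 to 0.056 in males. In simulation, the test called 58.0% of bins changed by 1.1-fold in females and 62.5% in males, and all of those changed by 1.2-fold, so smaller changes were not detectable at this depth.

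Input was the check of DNA amount. By edgeR, 0 keratin bins were called in females, beside 0.183% of bins, and 0 in males, beside 0.222%, and DESeq2 called 0 in both. At an unadjusted p under 0.05 there were 5 bins in females and 0 in males. Of these 5, the bins of Krt36, Krt5, Krt1 and Krt4 were higher in KO, by 0.070, 0.12, 0.087 and 0.069, and that of Krtap4-13 was lower, with -0.067. The lowest adjusted p among them was 0.301 in females, against 0.681 in males.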

How the data were processed

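The submitters' processing notes name build mm10 with Bowtie2 2.2.9, Trimmomatic 0.36, FastQC 0.11.3, MACS2 2.2.7.1, SAMtools 0.1.19 and deepTools 2.4.2, without the role of each. The authors deposited raw read counts per 100 kb bin, with 27268 bins and 1 column per library. The handling of duplicates and of reads with several alignments is not given in the sources used here. A further 24 columns match no labelled sample and were not used.

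Gene positions and promoter sequences came from RefSeq tables of GRCm38.p6. Counts of chromosomes 1 to 19 and X were fitted with edgeR 4.0.16 (limma 3.58.1, R 4.3.3) after filterByExpr, with TMM factors on autosomal bins and a mean per group. KO was compared with WT within each antibody's 8 libraries, and ratios between library types came from all 24 libraries. The quasi-likelihood F test was two-sided, with Benjamini-Hochberg adjustment over all bins tested. SE is the log2 value divided by the square root of F. CPM values used the TMM factors of each antibody's own fit. In the 3 fits the biological coefficient of variation had a median of 2.12% (gH2AX), 2.13% (H2AX) and 1.86% (input). The tests were run on simulated counts with known changes in a set of bins, with the spread taken from the fitted trend. Between the 2 libraries of each group, chi-square over its degrees of freedom was 2.58 to 3.90, above counting error alone.

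Alternatives were DESeq2 1.42.0, library totals of autosomal reads without TMM, no filter, a replicate block and the input change subtracted. Others were removal of each library's trend on its antibody's ratio to input, leaving out each library, and other flank widths and summaries. The members and gene lists were chosen with earlier results of these data known. Named bins were those with the most keratin genes per cluster, those of Krt5, Krt14, Krt1, Krt10, Krt8, Krt18, Krt7 and Krt19, the extremes of each ratio, up to 3 called bins per KO comparison, the extremes of each cluster's flanks and up to 3 bins per gene list. Krt12, Krt222, Krt33a, Krt84 and Krt4 bins and Vim were named beyond this rule, after their values were seen.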

Additional observations from a re-analysis of the deposited data

Results flagged for a closer look

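The KO effect on gH2AX differed between females and males in 2 of 19 keratin bins. The test was of the difference itself (edgeR quasi-likelihood, adjusted over all bins). Both bins were called lower in females, beside 20.4% of all bins called lower and 20.1% called higher. In the bin of Krt80 the female effect minus the male effect was -0.23 (log2), with a female change of -0.022 and a male change of 0.21. In the bin of Krt36, Krt13, Krt15, Krt19 and Krt9 it was -0.15, with a female change of -0.13 and a male change of 0.029. Both bins lost this call when each library's trend on gH2AX relative to input was removed, with -0.040 and -0.055. Over all bins tested, that step took the calls for this difference from 10404 to 226. No explanation of either difference was tested.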

How the results depend on the processing

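The 3 ratio comparisons kept their calls in number: without any 1 library, 15 to 17 keratin bins were called for gH2AX over input, 17 to 18 for H2AX over input and 15 to 16 for gH2AX over H2AX. H2AX and input comparisons of KO with WT gave 0 calls under each alternative run. For gH2AX in females the count of 0 became 1 with library totals, 1 with the replicate block and 1 with the input change subtracted, each time the Krt36 bin, and ranged from 0 to 1 over left-out libraries. For gH2AX in males the count of 3 became 1 with the input change subtracted and 0 with the trend on enrichment removed. With library totals the Krt5 bin was also called in males, at 0.085 (adjusted p = 0.0497, edgeR). With DESeq2 the Krtap4-8 bin was not called (adjusted p = 0.0525). Leaving out single libraries also changed which bins were called in males, as described above. For the difference between the sexes the count of 2 became 4 with the input change subtracted and 0 with the trend removed, and ranged from 1 to 3 over left-out libraries. With library totals the Krt4 bin was also called for this difference, at -0.12 (adjusted p = 0.0460, edgeR). The causes of these shifts were not tested.

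Same-numbered libraries were little correlated, from -0.041 to 0.0998 within an antibody. For gH2AX the correlations ran from 0.038 to 0.0998, so a weak pairing by number is possible. The replicate block changed no other count of calls in keratin bins. Over all bins it raised the gH2AX calls in females from 260 to 362. With 5 flanking bins per side the cluster-to-flank value on chromosome 11 was -0.34 for gH2AX over input and -0.27 for H2AX over input, and on chromosome 15 it was -0.11 and 0.0060. With 20 bins, or 19 on the right of chromosome 15 where the last bin holds no reads, it was -0.017 and 0.092 on chromosome 15. With the median over bins it was -0.089 and 0.10, and -0.19 for gH2AX over H2AX. Bins chosen by gene midpoint were the same 19. Alternatives on GC content were not run, as no genome sequence was used here. Changes under 1.1-fold were mostly below what these depths detect.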
